A study of Homo sapiens with 4 samples.

Results

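The 9 microRNA (miRNA) host genes described here are VMP1, MIR17HG, MIR22HG, MIR31HG, MIR99AHG, MIR100HG, MIR155HG, MIR205HG and MIR222HG. They were chosen by name, for the miRNAs they carry, and with earlier results of these data known. They are among 38726 protein-coding and long non-coding RNA (lncRNA) genes that GENCODE release 44 places on chromosomes 1 to 22 and X of hg38. VMP1 encodes a protein and the other 8 are lncRNA genes. For each gene, H3K27ac peaks were taken within 1 kb of every annotated start site (a promoter peak) and within a window made of the gene body and 50 kb on either side. The peaks came from ChIP-seq (sequencing of DNA pulled down with an antibody to the mark) of the triple-negative breast cancer lines MDA-MB-231 and Hs578T, with 2 replicates each. Per the labels, cells of all 4 libraries were starved for 8 h, exposed to TWEAK, a cytokine, at 10 ng/ml during 48 h and left in washout for 72 h, whereas the text of the study describes a longer removal. Without untreated libraries or libraries under TWEAK, which were not analysed here, the values describe cells after TWEAK removal and measure no effect of it. Both lines are cultured tumour cells, and peaks were called in each library against input DNA.

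A miRNA is cut from a hairpin in a longer transcript by the nucleases Drosha and Dicer, and the transcript that carries the hairpin is made by its host gene. Bases 2 to 8 of the mature miRNA, the seed, pair with target messages and set most of its target choice. Acetylation of lysine 27 of histone H3 marks active promoters and enhancers. Its peaks at the start sites of a host gene are a readout of the chromatin from which the hairpin's transcript can start. Peaks elsewhere in a window are not assigned here to the host gene. TWEAK binds the receptor Fn14 and activates NF-κB.

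Before any gene is described, the lists themselves have limits. The chromosomes used held 209 peaks in the list labelled MDA-MB-231 replicate 1, against 43353 in that labelled MDA-MB-231 replicate 2 and 46330 and 44920 in the Hs578T lists. Peaks covered 0.113 Mb in the small list and 81.8, 90.7 and 83.9 Mb in the others. Of the peaks labelled MDA-MB-231 replicate 2, 94.2% and 91.2% overlapped a peak of Hs578T replicates 1 and 2, and 93.4% of the peaks of Hs578T replicate 2 overlapped a peak of replicate 1, so the large lists did not fall apart by line. The peaks do not settle whether the list labelled MDA-MB-231 replicate 2 comes from that line, and values by line hold only as far as the labels do. In the 3 large lists all 5 mesenchymal markers examined (VIM, FN1, ZEB1, AXL and CD44) had a promoter peak, the luminal markers ESR1, PGR and FOXA1 had none, and the luminal or epithelial markers GATA3, CDH1 and EPCAM had a promoter peak too. None of these markers had a promoter peak in the small list. With 2 lists a line no test between lines was made, since an exact two-sided permutation test could not give a p below 0.333. Values are given for each list, and unless stated a series of 3 values runs in the order MDA-MB-231 replicate 2, Hs578T replicate 1 and Hs578T replicate 2.

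The mature miRNAs carried by these genes are printed to show which hosts deliver the same seed, with sequences from RefSeq (GRCh38.p14), 5′ to 3′, and the seed in capitals. The 18 arms come from 19 hairpins and hold 13 seeds. The arms of VMP1, MIR22HG, MIR31HG, MIR155HG and MIR205HG each have a seed that no other arm shown here shares:
miR-21-5p: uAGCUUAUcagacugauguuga
miR-22-3p: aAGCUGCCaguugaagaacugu
miR-31-5p: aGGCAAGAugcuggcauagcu
miR-155-5p: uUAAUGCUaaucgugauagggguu
miR-205-5p: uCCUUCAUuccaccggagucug
MIR17HG carries 6 hairpins with 4 seeds, in which miR-17-5p and miR-20a-5p form a pair that differs at 2 of 23 bases and miR-19a-3p and miR-19b-3p a pair that differs at 1 of 23:
miR-17-5p: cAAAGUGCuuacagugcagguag
miR-20a-5p: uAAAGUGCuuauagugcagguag
miR-18a-5p: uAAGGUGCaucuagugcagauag
miR-19a-3p: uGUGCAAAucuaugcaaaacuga
miR-19b-3p: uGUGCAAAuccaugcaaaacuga
miR-92a-3p: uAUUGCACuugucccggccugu
MIR222HG carries a pair with the same seed:
miR-221-3p: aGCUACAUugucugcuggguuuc
miR-222-3p: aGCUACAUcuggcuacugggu
MIR100HG and MIR99AHG are parallel clusters on different chromosomes. Each delivers a miR-99/100 arm, a let-7 arm and miR-125b-5p, whose mature sequence is the same from both, and their miR-99/100 and let-7 arms each differ at 1 of 22 bases:
miR-100-5p: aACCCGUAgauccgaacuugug
miR-99a-5p: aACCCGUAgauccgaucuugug
let-7a-5p: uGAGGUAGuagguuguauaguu
let-7c-5p: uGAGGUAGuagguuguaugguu
miR-125b-5p: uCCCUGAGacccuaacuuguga

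Promoter peaks were found at 5 of the 9 genes in each large list, the same 5 in all: VMP1, MIR17HG, MIR22HG, MIR100HG and MIR222HG. MIR31HG, MIR99AHG, MIR155HG and MIR205HG had none in any list. Over all 38726 genes the share with a promoter peak was 45.4% in MDA-MB-231 replicate 2, 45.8% in Hs578T replicate 1 and 44.6% in Hs578T replicate 2, and 5 of 9 is close to it. The list labelled MDA-MB-231 replicate 1 marked 0 of 9, where 0.0826% of all genes were marked. Among the 75 other genes named as miRNA hosts (MIR...HG), 32 (42.7%) had a promoter peak in each large list. Of the 1149 other genes that hold an annotated hairpin, 832, 836 and 820 had one (72.4%, 72.8% and 71.4%). Among all lncRNA genes the share was 27.35%, 27.94% and 27.07%. For the 833 lncRNA genes with at least 10 start sites it was 49.7%, 50.3% and 49.9%. These counts depend on the number of start sites a gene has, which was 16 at the median of the 9 genes, 5 at the median protein-coding gene and 1 at the median lncRNA gene. With the start site of the Ensembl canonical transcript alone, 4 of 9 genes were marked in each large list, and MIR100HG was the gene lost. Over all 38726 genes that share was 42.36%, 42.75% and 41.38%, and 4 of 9 is close to it too.

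**Figure D1:**
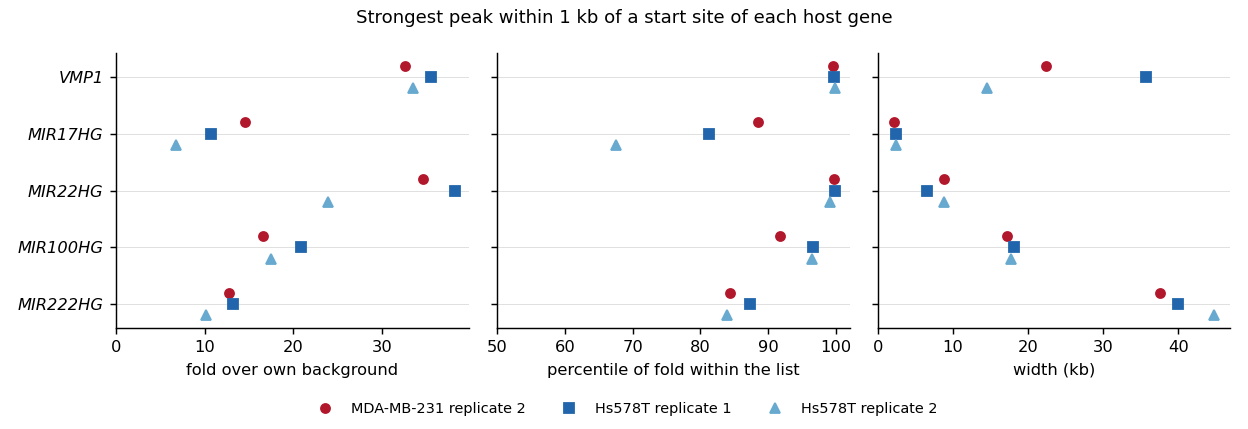
Strongest peak within 1 kb of a start site for the 5 host genes that had one, as the fold over each library's own background (left), the percentile of that fold among all peaks of the same list (middle, axis from 50) and the width in kb (right), with a point for each of the 3 large lists. VMP1 and MIR22HG sit above the 99th percentile in all 3 lists, and MIR222HG has the widest of the plotted peaks in all 3, 37619 to 44810 b, with a fold at percentiles 84.0 to 87.4.

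The promoters of 5 genes are printed because they span the outcomes above, each 250 bases before to 50 after the RefSeq start, on the gene's strand. VMP1 (chr17:59707404-59707703, plus strand), MIR22HG (chr17:1716161-1716460, minus strand) and MIR222HG (chrX:45770218-45770517, minus strand) lay under a peak in every large list, and MIR31HG (chr9:21559749-21560048, minus strand) and MIR155HG (chr21:25561895-25562194, plus strand) in none. Capitals mark the AP-1 motif, TGACTCA on either strand:
VMP1: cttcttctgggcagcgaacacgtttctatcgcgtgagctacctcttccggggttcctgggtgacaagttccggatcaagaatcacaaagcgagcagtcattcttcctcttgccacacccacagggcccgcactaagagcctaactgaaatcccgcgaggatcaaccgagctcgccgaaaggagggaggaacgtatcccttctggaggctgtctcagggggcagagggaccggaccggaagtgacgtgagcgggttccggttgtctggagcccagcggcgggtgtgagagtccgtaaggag
MIR22HG: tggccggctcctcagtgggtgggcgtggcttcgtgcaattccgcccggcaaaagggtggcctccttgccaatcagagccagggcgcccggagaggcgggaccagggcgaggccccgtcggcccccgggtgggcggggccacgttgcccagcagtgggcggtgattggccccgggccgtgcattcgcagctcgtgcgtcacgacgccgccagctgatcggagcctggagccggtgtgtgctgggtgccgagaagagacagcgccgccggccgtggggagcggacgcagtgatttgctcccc
MIR222HG: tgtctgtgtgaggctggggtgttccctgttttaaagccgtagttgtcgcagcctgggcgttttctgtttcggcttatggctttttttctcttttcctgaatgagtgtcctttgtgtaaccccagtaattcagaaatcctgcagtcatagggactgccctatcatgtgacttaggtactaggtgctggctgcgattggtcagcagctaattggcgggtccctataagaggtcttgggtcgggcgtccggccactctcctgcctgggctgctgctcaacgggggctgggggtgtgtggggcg
MIR31HG: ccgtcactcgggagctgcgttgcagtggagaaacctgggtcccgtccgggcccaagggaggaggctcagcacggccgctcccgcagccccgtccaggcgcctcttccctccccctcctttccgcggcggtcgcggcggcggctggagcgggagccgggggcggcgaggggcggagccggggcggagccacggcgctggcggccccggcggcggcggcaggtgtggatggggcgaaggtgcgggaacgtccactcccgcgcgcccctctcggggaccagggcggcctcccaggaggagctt
MIR155HG: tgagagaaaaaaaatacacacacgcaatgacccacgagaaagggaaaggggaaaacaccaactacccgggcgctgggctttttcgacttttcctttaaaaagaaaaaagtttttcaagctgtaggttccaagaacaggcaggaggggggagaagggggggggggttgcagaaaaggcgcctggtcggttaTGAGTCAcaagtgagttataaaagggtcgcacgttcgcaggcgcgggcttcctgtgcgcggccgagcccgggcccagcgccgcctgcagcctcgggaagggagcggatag
The share of G and C was 59.3% for VMP1, 72.3% for MIR22HG and 54.7% for MIR222HG, against 77.7% for MIR31HG and 56.0% for MIR155HG. Over the 19 RefSeq promoter windows of the 9 genes it ran from 49.0% to 73.0% (median 59.3%) in the 5 under a peak in all 3 large lists, was 46.3% and 53.0% in the 2 of MIR100HG under a peak in some lists, and ran from 36.3% to 77.7% (median 46.0%) in the 12 under none, of which 6 belong to MIR99AHG and 3 to MIR100HG. The AP-1 motif was found in 1 of the 19 windows, that of MIR155HG, and in 4.92% of 34961 promoter windows of the same length. The NF-κB motif, which does not overlap the AP-1 motif, was found in 2 of the 19, a window of MIR99AHG and a window of MIR100HG, and in 5.91% of all windows. A match describes these letters and not binding.

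VMP1, which encodes an endoplasmic reticulum protein of autophagy, carries MIR21 near its 3′ end (chr17:59841266-59841337, plus strand), in an exon of the canonical transcript and 133612 b from the canonical start. miR-21 is abundant in many carcinomas and represses PDCD4. In the window of 235.1 kb, peaks covered 1158 b in MDA-MB-231 replicate 1, 75021 b in MDA-MB-231 replicate 2, and 86887 and 78213 b in the Hs578T lists (82550 ± 6133, SD, n = 2). The 3 large lists thus covered 31.9%, 37.0% and 33.3% of the window, at percentiles 99.3, 99.4 and 99.3 of the same share over all genes. The largest of these shares came from Hs578T replicate 1 and the smallest from MDA-MB-231 replicate 2.

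VMP1 has 16 annotated start sites in 3 clusters at least 1 kb apart, and 15 of the 16 were marked in each large list. The cluster of 10 starts that includes the canonical start lay under a peak of 2632, 2335 and 2289 b with a fold enrichment of 13.6, 16.4 and 13.3. Fold enrichment is the authors' ratio of a peak over its library's own background, so it is read within a list, where these peaks stood at percentiles 86.6, 92.7 and 91.5. The single start 27.7 kb downstream had no peak within 1 kb in any list. PTRH2, a peptidyl-tRNA hydrolase gene on the other strand, starts 28 b from the canonical start, so its promoter peak cannot be told apart from that of VMP1.

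The mark over MIR21 was wider and stronger than that at the canonical VMP1 start. The third cluster, of 5 starts from 129.6 kb downstream and upstream of the hairpin, shared a peak with MIR21 in each large list. That peak was 22426 b wide with a fold of 32.7 in MDA-MB-231 replicate 2, 35646 b with 35.6 in Hs578T replicate 1, and 14572 b with 33.5 in Hs578T replicate 2. By width these were peaks number 35, 13 and 128 of their lists, and by fold they stood at percentiles 99.5, 99.7 and 99.9. Once peaks within 2.5 kb were joined, the stretch over MIR21 measured 35269, 35646 and 35479 b, so the lists differed there in how the stretch was split into peaks. This joining distance was chosen after the peaks were seen. In the list labelled MDA-MB-231 replicate 1 the hairpin had no peak, and the only peak of any of the 9 windows in that list, 1158 b wide with a fold of 3.84, began 1393 b past it.

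Further peaks filled the introns of VMP1. The large lists had 14, 17 and 16 peaks in the window in all. The strongest intronic peak lay 78.1, 78.6 and 78.1 kb from the canonical start, spanned 9217, 8859 and 8704 b and had a fold of 35.4, 40.3 and 34.9, which placed it at percentiles 99.7, 99.9 and 99.9. Another intronic peak, 47.1, 46.9 and 46.4 kb from the start, reached a fold of 12.2, 18.6 and 15.7, and that 96.3, 96.5 and 97.9 kb from the start 14.5, 18.0 and 14.9. Promoter peaks of CLTC, the clathrin heavy chain gene, were present in every large list. So was a peak at TUBD1, which encodes delta-tubulin, at the edge of the window. With bases near the starts of such neighbours left out, 69573, 79138 and 73251 b of the window remained covered.

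**Figure D2:**
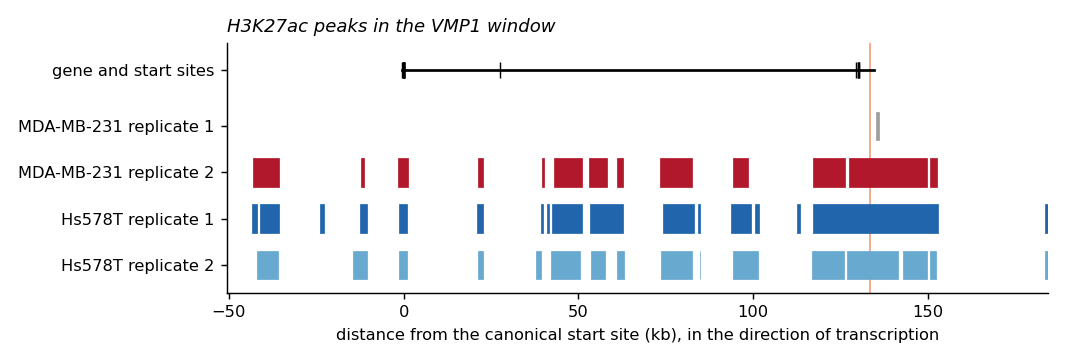
H3K27ac peaks (bars) in the window of VMP1 for the 4 lists, against the distance from the canonical start in kb in the direction of transcription. The line at the top is the gene with its start sites as ticks, and the vertical line is MIR21, which lies under a peak in the 3 large lists and 1393 b from the single peak of MDA-MB-231 replicate 1.

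The 3 genes whose pattern was most like that of VMP1 were named by the summed difference in percentile of fold, width and covered share over the 3 large lists, 9 values a gene, among 16841 genes marked in all 3. They were the lncRNA gene ENSG00000274598, DRAP1 and C11orf68, with summed differences of 1.61, 2.12 and 2.14 percentile points. DRAP1, a transcriptional corepressor gene, and C11orf68 share a peak of 32955, 33692 and 32702 b. These points share libraries and windows, and the likeness is a description.

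MIR22HG, the host of miR-22, had the strongest promoter mark by fold in MDA-MB-231 replicate 2 and Hs578T replicate 1. The gene is 5.73 kb long (chr17:1711447-1717174, minus strand) and all 20 of its start sites were marked in each large list. The peak spanned 8792, 6530 and 8793 b, with a fold of 34.6, 38.2 and 24.0 at percentiles 99.7, 99.8 and 99.1. The whole gene lay under it in MDA-MB-231 replicate 2 and Hs578T replicate 2, and the hairpin, in an exon of the canonical transcript, lay inside it in all 3. WDR81, a gene of endosome traffic, starts 182 b from a start of MIR22HG on the other strand, so the peak is shared by both. The TLCD2 start lies 5829 b from the nearest start of MIR22HG. In MDA-MB-231 replicate 2 and Hs578T replicate 2 it lay under this same peak, whose width thus takes in that promoter too. In Hs578T replicate 1 it lay under a separate peak of 1613 b. PRPF8, which encodes a core splicing factor, also had a promoter peak in the window. The window held 18151, 17942 and 17642 covered bases (17792 ± 212, SD, n = 2, in Hs578T), and 8991, 8868 and 8319 without the starts of neighbours. These came from 6, 8 and 9 peaks, so the covered bases were close while the peak numbers were not.

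MIR222HG carries miR-221 and miR-222, which repress the cell cycle inhibitor CDKN1B and are high in basal-like breast tumours. A single peak covered its whole body of 25.1 kb (chrX:45745210-45770274, minus strand) in each large list, from the start sites through both hairpins, which lie in an intron 23.2 and 24.0 kb from the canonical start. This peak was 37619, 39918 and 44810 b wide, the 4th, 8th and 5th widest of its list, while its fold of 12.7, 13.2 and 10.2 stood at percentiles 84.4, 87.4 and 84.0. The strongest peak of the window lay 58.1 kb downstream of the canonical start by its midpoint, outside the gene, and had a fold of 21.0, 21.9 and 17.3 over 8832, 8905 and 8812 b. All 4 start sites were marked. Covered bases came to 62889, 69394 and 69152 b (69273 ± 171, SD, n = 2, in Hs578T), or 50.3%, 55.5% and 55.3% of the window, the highest share among the 9 genes in each large list. Over all genes these shares stood above percentile 99.9. The only neighbour with a marked start was the lncRNA gene ENSG00000269902, so almost none of the covered bases lay at starts of other genes, and 60888, 67393 and 67151 b remained without them.

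MIR100HG carries MIR125B1, MIRLET7A2 and MIR100 over a body of 528.4 kb (chr11:122028325-122556721, minus strand). Its canonical start had no peak within 1 kb in any list. Of 87 start sites 19, 45 and 45 were marked, in 4, 6 and 6 of 16 clusters, and the first of these lay 353.4, 352.4 and 352.4 kb downstream of the canonical start. The strongest promoter peak was centred 362, 362.1 and 362.2 kb from the canonical start, with a fold of 16.6, 20.9 and 17.5 and a width of 17194, 18071 and 17768 b. The peak next to it was split differently between the lists: MDA-MB-231 replicate 2 had peaks of 27136 and 19535 b, Hs578T replicate 1 of 29879 and 18105 b, and Hs578T replicate 2 a single peak of 47887 b, the 4th widest of its list. MIRLET7A2 and MIR100 lay under these peaks in each large list, although in Hs578T replicate 1 the peak ended 62 b past MIR100. MIR125B1 was not overlapped, and its nearest peak was 5089, 1186 and 1428 b away.

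Among the start clusters of MIR100HG, the large lists differed at a pair. A cluster of 25 starts, the first 454.5 kb from the canonical start, next to MIR125B1, had a weak peak of 1183 b with a fold of 2.69 in Hs578T replicate 1 and of 1049 b with 3.18 in Hs578T replicate 2, and none in MDA-MB-231 replicate 2. These folds stood at percentiles 7.26 and 19.2, near the bottom of their lists. That cluster and a start 352.4 kb from the canonical start account for the additional starts marked in the Hs578T lists. Covered bases were 67581 b in MDA-MB-231 replicate 2 and 88993 and 81062 b in the Hs578T lists (85028 ± 5608, SD, n = 2). BLID, a gene inside the MIR100HG window, had a weak promoter peak in every large list.

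MIR17HG, the host of the miR-17 to miR-92a cluster and a known target of MYC, had a compact promoter peak of 2178, 2391 and 2400 b. Its fold was 14.6, 10.8 and 6.74, at percentiles 88.5, 81.3 and 67.6, so it ranked lower in each Hs578T list than in MDA-MB-231 replicate 2. The rank in Hs578T replicate 1 was nearer to that in MDA-MB-231 replicate 2 than to that in Hs578T replicate 2. The 10 start sites of the promoter cluster were marked and the other 4 were not. These 4 run from within MIR92A1, the last of the hairpins, to its 3′ side. None of the 6 hairpins was overlapped: MIR17 (chr13:91350605-91350688, plus strand) lay 1264, 1131 and 1030 b past the end of the peak, and MIR92A1 1973, 1840 and 1739 b past it. Besides this peak the window of 149.9 kb held 1 weak peak in each of MDA-MB-231 replicate 2 and Hs578T replicate 2. In all 2422, 2391 and 3174 bases were covered.

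**Figure D3:**
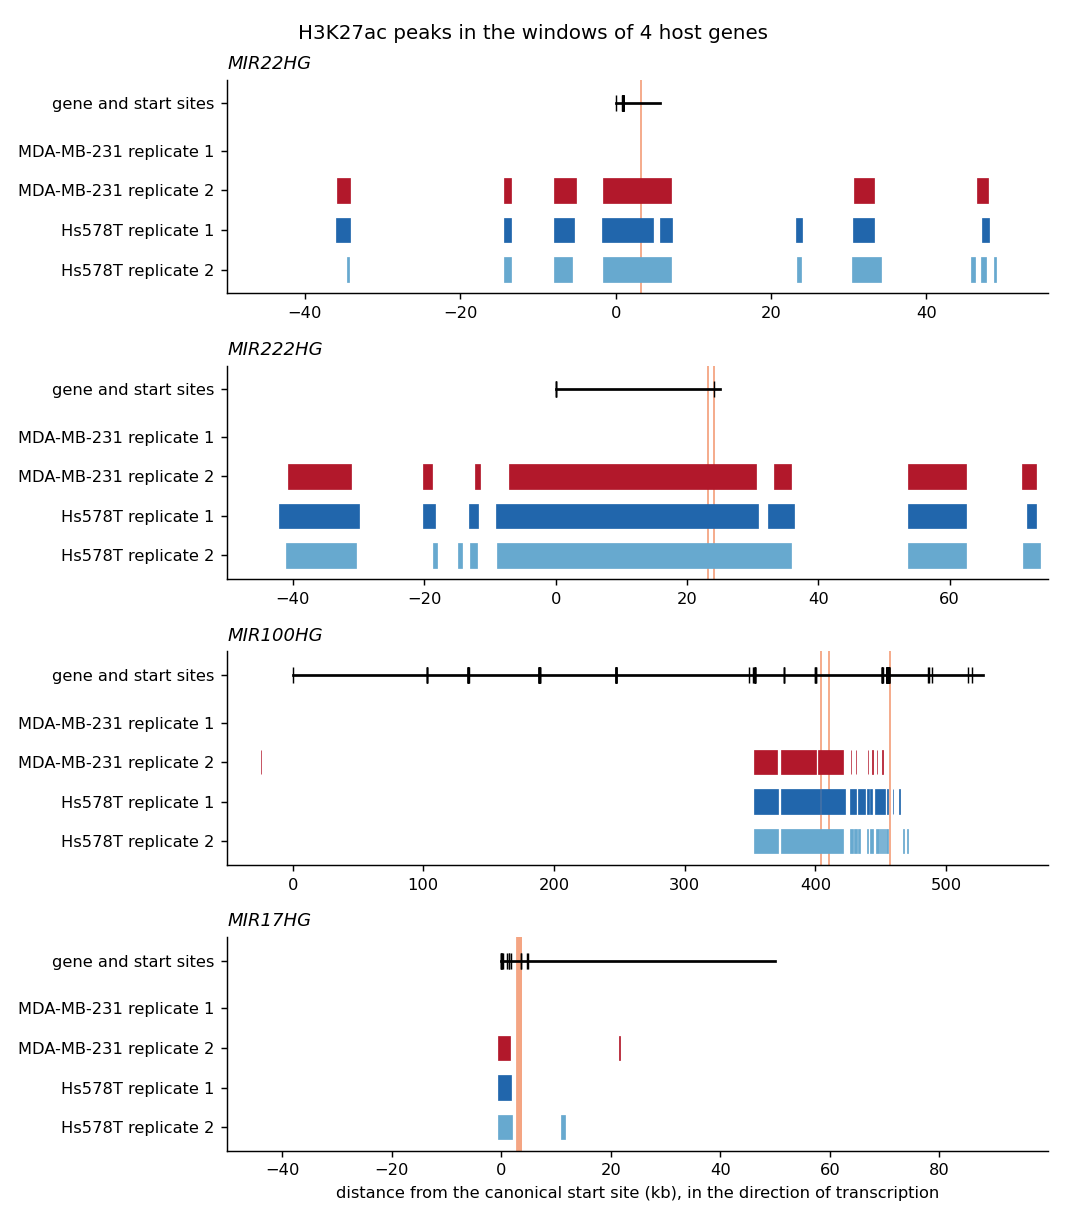
H3K27ac peaks (bars) in the windows of MIR22HG, MIR222HG, MIR100HG and MIR17HG for the 4 lists, against the distance from the canonical start in kb in the direction of transcription. Ticks on the gene line are start sites and vertical lines are hairpins. The main peaks of MIR100HG begin where its first marked starts lie, 352.4 to 353.4 kb from the canonical start, and the row of MDA-MB-231 replicate 1 is empty in all 4 windows.

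The host of miR-31, MIR31HG, had no peak in its window of 279.8 kb in any list (chr9:21380073-21559891, minus strand, for the gene). Loss of miR-31 has been linked to breast cancer metastasis. None of its 21 start sites was marked, and the nearest peak to MIR31 was 755728, 755710 and 755587 b away in the large lists. The gene lay in a stretch of 4.34 Mb without a peak in each of these lists. That stretch held the starts of 24 protein-coding genes, among them 13 interferon alpha genes, CDKN2A, CDKN2B and MTAP. By the number of protein-coding starts it was number 8, 7 and 6 of all stretches between neighbouring peaks in its list, of 43330, 46307 and 44897. By length it was number 19, 21 and 20, and the most such starts in any stretch was 72 in each large list. Copy number was not analysed here, so DNA without the mark and DNA missing from the cells cannot be told apart in this stretch.

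MIR99AHG, the host of the cluster parallel to that of MIR100HG, had no marked start among 196. Its body of 718.1 kb (chr21:15928296-16646364, plus strand) held 2, 2 and 4 peaks, all intronic, with 1780, 5633 and 5090 covered bases (0.218%, 0.689% and 0.622% of the window). The strongest lay 635.4 kb from the canonical start in each large list, with a width of 1446, 1632 and 1523 b and a fold of 6.97, 7.95 and 6.92. The hairpins MIR99A, MIRLET7C and MIR125B2 were between 15870 and 23949 b from the nearest peak. MIR100HG and MIR99AHG thus carry arms with the same 3 seeds, while peaks covered 10.8%, 14.2% and 12.9% of the window of MIR100HG.

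MIR155HG, the host of miR-155, an miRNA of activated lymphocytes and macrophages, had no peak at either of its 2 start sites. The only peak in its body (chr21:25561810-25575168, plus strand) was weak and lay at the hairpin, toward the 3′ end. In MDA-MB-231 replicate 2 it was 696 b wide with a fold of 3.08 and overlapped MIR155. In Hs578T replicate 1 it was 240 b wide with 3.14 and ended 124 b before the hairpin, and in Hs578T replicate 2 it was 244 b wide with 2.76 and ended 12 b before it. These folds stood at percentiles 11.5, 19.6 and 6.07. The difference in overlap is thus one of a peak edge, and with a q-value of at most 0.01 the peak of MDA-MB-231 replicate 2 was no longer counted over the hairpin. The peak of Hs578T replicate 2 (chr21:25573725-25573968, hg38, plus strand) is printed because its edge decides the call, and neither motif was found in it:
MIR155 peak: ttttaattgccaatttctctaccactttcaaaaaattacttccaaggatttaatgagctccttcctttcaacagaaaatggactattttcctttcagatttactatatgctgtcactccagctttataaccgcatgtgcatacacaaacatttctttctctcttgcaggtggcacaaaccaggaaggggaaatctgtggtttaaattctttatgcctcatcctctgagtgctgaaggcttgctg
The other peak of the window, at 471, 331 and 358 b in width, was at the start of MRPL39, a mitochondrial ribosomal protein gene.

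MIR205HG, the host of miR-205, which represses ZEB1 and ZEB2 and is typical of epithelial and basal cells, had no promoter peak and no peak in its body of 4.03 kb (chr1:209428817-209432848, plus strand). All peaks of its window, 4, 5 and 5, were upstream, and the nearest to the hairpin were 21503, 21633 and 21574 b away. The strongest was centred at -23.51, -23.78 and -23.54 kb from the start, on the upstream side, with a fold of 9.38, 9.01 and 7.78 and a width of 2904, 2386 and 2011 b. Covered bases were 7419, 7398 and 7294 b (7346 ± 73.5, SD, n = 2, in Hs578T). No start of a neighbouring gene lay at these peaks.

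Over the hairpins themselves, 7 of 19 were overlapped in MDA-MB-231 replicate 2 and 6 in each Hs578T list, and 0 in MDA-MB-231 replicate 1. Of all 1877 annotated hairpins 12.6%, 13.2% and 11.9% were overlapped in the large lists and 0.107% in the small one. The 6 that all large lists shared were MIR21, MIR22, MIRLET7A2, MIR100, MIR221 and MIR222, and MIR155 was the additional hairpin. These hairpins come from few genes and share peaks, so they are 5, 4 and 4 genes. MIR221 and MIR222 share a peak, as do MIRLET7A2 and MIR100.

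**Figure D4:**
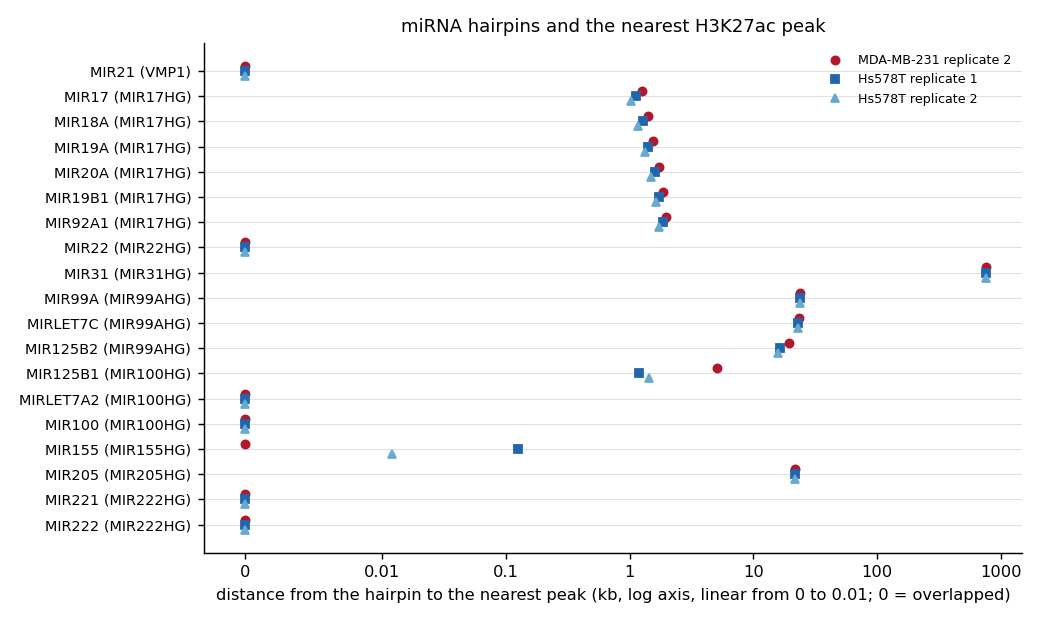
Distance in kb from each of the 19 hairpins, with its host gene in brackets, to the nearest H3K27ac peak in the 3 large lists (log axis, linear below 0.01 kb, with 0 for an overlap). The hairpins of VMP1, MIR22HG and MIR222HG sit at 0 in all 3 lists, those of MIR17HG between 1030 and 1973 b and MIR31 between 755587 and 755728 b.

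Summed over the 9 windows (2.56 Mb), peaks numbered 1 in MDA-MB-231 replicate 1, 47 in replicate 2, and 53 and 59 in Hs578T. They covered 1158, 236430, 279209 and 262229 b, or 118794 ± 166362 (SD, n = 2) in MDA-MB-231 and 270719 ± 12007 (SD, n = 2) in Hs578T. The spread within MDA-MB-231 exceeded the gap between the lines. Of the 47, 53 and 59 peaks, 8, 9 and 11 lay at starts of the host genes, 8, 11 and 10 at starts of neighbours and 31, 33 and 38 away from both. The covered bases shared by MDA-MB-231 replicate 2 and the Hs578T lists were 0.7876 and 0.7998 of the bases covered in either (the Jaccard index), and 0.810 between the Hs578T lists, against 0.770, 0.759 and 0.781 over the chromosomes used. By gene, the index of MDA-MB-231 replicate 2 with the Hs578T lists was lowest for MIR99AHG, at 0.316 and 0.350, where few peaks were called. It was highest for MIR222HG, at 0.877 and 0.855.

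**Figure D5:**
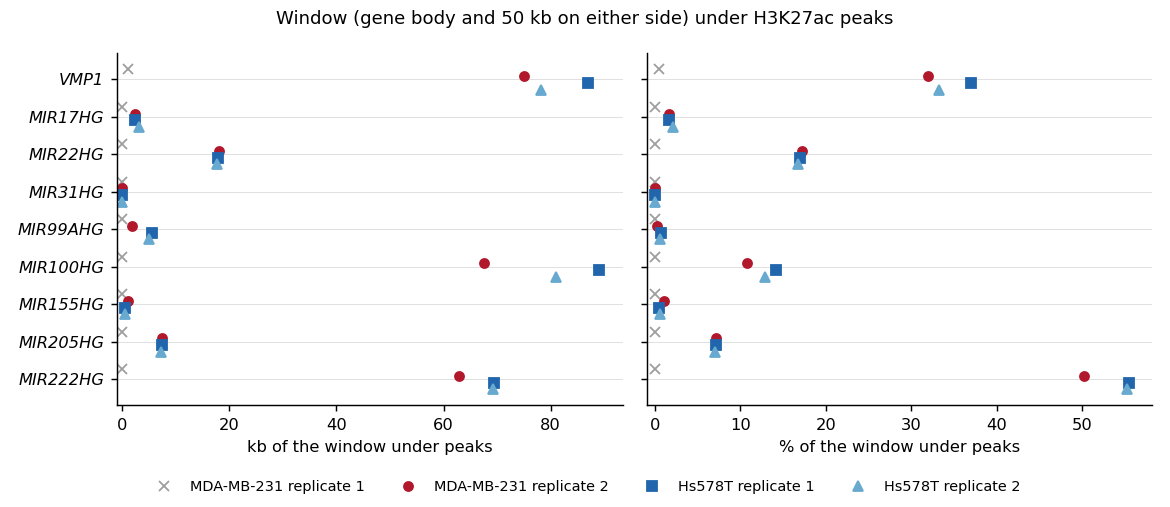
Bases under H3K27ac peaks in the window of each host gene, in kb (left) and as a percentage of the window (right), with a point for each of the 4 lists. VMP1, MIR100HG and MIR222HG lie between 62889 and 88993 b in the 3 large lists, MIR31HG is at 0 in all 4, and MDA-MB-231 replicate 1 is at 0 at each gene but VMP1.

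The AP-1 motif was also counted in the 500 bases around the midpoint of distal peaks, those over 2.5 kb from every canonical start. It was present in 11 of 38 distal peaks of the 9 windows in MDA-MB-231 replicate 2, 7 of 42 in Hs578T replicate 1 and 7 of 48 in Hs578T replicate 2. Over all distal peaks of the same lists the shares were 33.6%, 32.2% and 32.0%. Distal peaks near VMP1 held it in 4 of 12, 2 of 15 and 2 of 14 cases, and those near MIR100HG in 1 of 9, 0 of 9 and 0 of 12. Distal peaks of the windows with the NF-κB motif numbered 2, 1 and 0, and the motif was present in 6.78%, 6.39% and 6.36% of all distal peaks. Wide distal peaks such as those over MIR21 were searched only at their centre. The wide peak over MIR222HG takes in its canonical start, so it was not among the distal peaks and was not searched.

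Among the 75 other named host genes, the widest promoter peaks by the mean of the lists were those of MIR23AHG, at 21742, 22872 and 15662 b, MIRLET7BHG, at 13713, 14854 and 13928 b, and MIR4280HG, at 11520, 12673 and 12541 b. In each large list the widest promoter peak of MIR222HG and that of MIR100HG exceeded all of these. For MIR100HG it was the widest over 87 start sites, whereas MIR23AHG has 1. The strongest promoter peak of MIR100HG, of 17194, 18071 and 17768 b, was narrower than the peak of MIR23AHG in MDA-MB-231 replicate 2 and Hs578T replicate 1.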

How the data were processed

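H3K27ac ChIP-seq peak lists of 4 libraries were used, 2 per line, with groups and replicate numbers from the sample titles. Per the labels and methods, the authors trimmed reads with Trimmomatic, mapped them to hg38 with Bowtie2, called peaks per library with MACS2 against input and removed blacklisted regions with bedtools. Tool versions and MACS2 settings were not given in the sources used here, and the 9 columns of the lists are those of broad peak output. Each deposited peak has a score, a fold enrichment, which is a ratio over its library's background, and −log10 values of the p-value and q-value. Because the fold depends on each library's background and depth, it was ranked within a list and its size was not compared between lists. Read numbers were not used, so depth is unknown, and weak peaks are the least certain.

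Genes, start sites and hairpins came from GENCODE 44, and every sequence name and peak end fitted the hg38 sequences. The 9 genes, their neighbours and hairpins, the 3 genes most like VMP1 and the other host genes with the widest promoter peaks were named by fixed rules. The members and lists were chosen with earlier results of these data known. Peaks were intersected in Python 3.11.15 with pandas 2.3.3, NumPy 2.4.6 and pysam 0.24.0, and the interval functions were tested on simulated data. Values are given per list or as mean ± SD, and SDs cover the spread between the 2 replicates of a line, whose cultures the labels do not describe. A percentile is the share of peaks of a list at or below a value. For covered shares over genes it is the rank as a percentage of all genes, with ties given their average rank. Alternatives were other strength limits, windows, start sites, flanks, merging, and leaving out each replicate.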

Additional observations from a re-analysis of the deposited data

How the results depend on the processing

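No paired analysis was possible because no result comes from a test. Of 58 recomputed line values, leaving out replicates aside, 43 stayed within 1.5 times the count or within 1 SD of the value reported, and 15 moved. The SD of covered bases in MDA-MB-231 (166362) exceeds their mean, so that value counts as unmoved under every setting run, however far it fell. With as many highest-scoring peaks as the shortest list has, host genes with a promoter peak fell to 0.5 (from 2.5) in MDA-MB-231 and 1.5 (from 5) in Hs578T. Under that limit those with a peak over a hairpin came to 0.5 (from 2.5) and 1.5 (from 4), covered bases to 16401 (from 118794) and 40559 (from 270719), and the median fold of the strongest promoter peak to 32.7 (from 16.6) and 35.2 (from 19.2). VMP1 was the gene that kept both marks in all 3 large lists. With canonical starts only, the median fold was 14.1 and 13.3, since MIR100HG dropped out and VMP1 was read at its canonical start instead of beside MIR21. Covered bases in Hs578T were 227736 with the 50% of peaks with the highest score, 256536 with a q-value of at most 0.01, 176996 in gene bodies only, 211715 with 10 kb and 313129 with 100 kb on either side, and 251520 without the starts of neighbours. These follow from fewer peaks or other window lengths. In MDA-MB-231, leaving out a replicate gave 0 to 5 host genes with a promoter peak, 0 to 5 with a peak over a hairpin and 1158 to 236430 covered bases. The 0 and the 1158 were those without replicate 2, where no median fold could be given. In Hs578T leaving out a replicate gave 262229 to 279209 covered bases and a median fold of 17.5 to 20.9. For single genes in single lists, 33 of 36 promoter calls were the same with the canonical start alone. That setting can remove a call but cannot add one, so genes without a promoter peak could not change. Of 144 covered lengths, 101 were within 1 SD between the replicates of their line, a wide tolerance in MDA-MB-231. Some of these were 0 under every setting and could not move. They were the lengths of MIR31HG in every list and of each gene but VMP1 in MDA-MB-231 replicate 1. The 3 calls lost were those of MIR100HG. Depth is unknown, why the small list is small was not tested, and the absence of a peak there does not show the absence of the mark.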
